A study of Mus musculus with 6 samples.

Results

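Mitochondrial ribosomal protein genes are the nuclear genes named Mrpl (large subunit) or Mrps (small subunit) followed by a number. They were taken as every protein-coding gene of the count table whose GENCODE M21 symbol has that form, with no use of expression values. The rule found 78 genes among 55401 identifiers, 49 named for the large subunit and 29 for the small subunit. Their levels were measured by sequencing poly(A) RNA from mouse ES cells, a pluripotent cell type derived from the early embryo. There are 6 libraries, and the labels call 3 of them 3XHA-Taf13 expressing cells. They carry 3XHA-Taf13, a copy of the transcription factor subunit gene Taf13 with an HA tag, and had no treatment. The other 3 are labelled KO and received doxycycline. Culture lasted 7 days in each condition, and the dishes were separate within each condition, though nothing in the labels says whether the dishes came from separate starting cultures. The KO label and doxycycline always occur together, so gene loss and the drug cannot be told apart in any comparison below. How the gene is removed, and whether the cells are 1 clone, is not given in the sources used here.

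The mitochondrial ribosome translates the few proteins encoded in mitochondrial DNA, which are core subunits of the respiratory chain and the ATP synthase. Its RNA comes from the mitochondrial genome, whereas all of its proteins are encoded in the nucleus, made in the cytosol and imported. Many of these proteins have counterparts in bacterial ribosomes, and others were added in the mitochondrial lineage. Doxycycline is a tetracycline, an antibiotic class that binds the small subunit of bacterial ribosomes and also inhibits translation in mitochondria. The question of the comparison was therefore how transcripts of the large and small subunit genes stood in cells that had received the drug and carried the KO label.

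Total counts per library ran from 31219328 to 50328010. Levels are given in CPM, read counts relative to library size after TMM scaling, and fold changes are log2, KO minus expressing, with a standard error (SE). A gene is said to rise or fall where edgeR's quasi-likelihood test gave an adjusted p under 0.05 over all 17778 genes tested. Taf13 had 244, 445 and 447 counts in the expressing libraries and 422, 634 and 699 counts in the libraries labelled KO (log2 fold change 0.40, SE 0.147, adjusted p = 0.0578, edgeR; 0.0126 to 0.166 with 1 library left out). Taf13 counts were thus not lower in the libraries labelled KO and do not check the labels. KO below means the libraries labelled KO, and which copies of the gene the counts hold was not tested. All 8 pluripotency markers fell (summed 3380 to 3490 CPM in the expressing libraries, 2190 to 2220 CPM in the KO libraries). All 10 primitive endoderm markers rose, with sums of 396 to 421 and 964 to 1020 CPM. Of 8 feeder fibroblast markers, 2 rose and 1 fell (summed 1160 to 1350 and 951 to 1350 CPM). Dcn, Postn and Lum stayed at or below 2.81 CPM in every library. Fn1 made up most of the sums, at 1060 to 1230 and 860 to 1180 CPM. Col1a1 was at 58.7, 41.6 and 48.5 CPM in the expressing libraries and 40.9, 75.9 and 40.0 CPM in the KO libraries. Col1a2 was also highest in KO replicate 2, at 68.0 CPM. In such bulk RNA, a smaller share of cells of one kind and less RNA per cell cannot be told apart. Their part in the results below was not tested. Expressing replicate 1 stood apart from the other libraries along GC content, and the counts and medians of gene groups are also given without it below.

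Transcripts of both ribosomal subunits were slightly lower in the KO libraries. Of 77 genes tested, 30 fell, 2 rose and 45 did not pass, and most changes were small: the median log2 fold change was -0.17, against -0.01 over all genes tested. Of the 48 large subunit genes tested, 18 fell and 1, Mrpl33, rose. Of the 29 small subunit genes, 12 fell and 1, Mrps6, rose. Over all genes tested 20.8% fell and 19.2% rose, and among the 9405 genes with a mean of at least 10 CPM 26.9% fell and 17.8% rose. The share that fell was 37.5% of the large subunit genes and 41.4% of the small subunit genes, above both backgrounds, and the share that rose was 2.08% and 3.45%, below both. Among the large subunit genes that overlap no other gene, 8 fell, a share only a little above the 26.9%. The median was -0.17 in each subunit, and a value below 0 was found for 39 large and 22 small subunit genes.

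The scaling of the libraries moved these counts. When only total counts set the scale, 6 ribosomal genes rose and 19 fell (3 and 10 in the large subunit, 3 and 9 in the small), the median over all genes tested went from -0.01 to 0.08, and the median of the ribosomal genes went to -0.08. In that setting 4465 of all genes tested rose and 2572 fell. Without expressing replicate 1, 10 rose and 36 fell (6 and 23 in the large subunit, 4 and 13 in the small) with a median of -0.11, when 4852 genes rose and 4589 fell among all those tested.

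**Figure D1:**
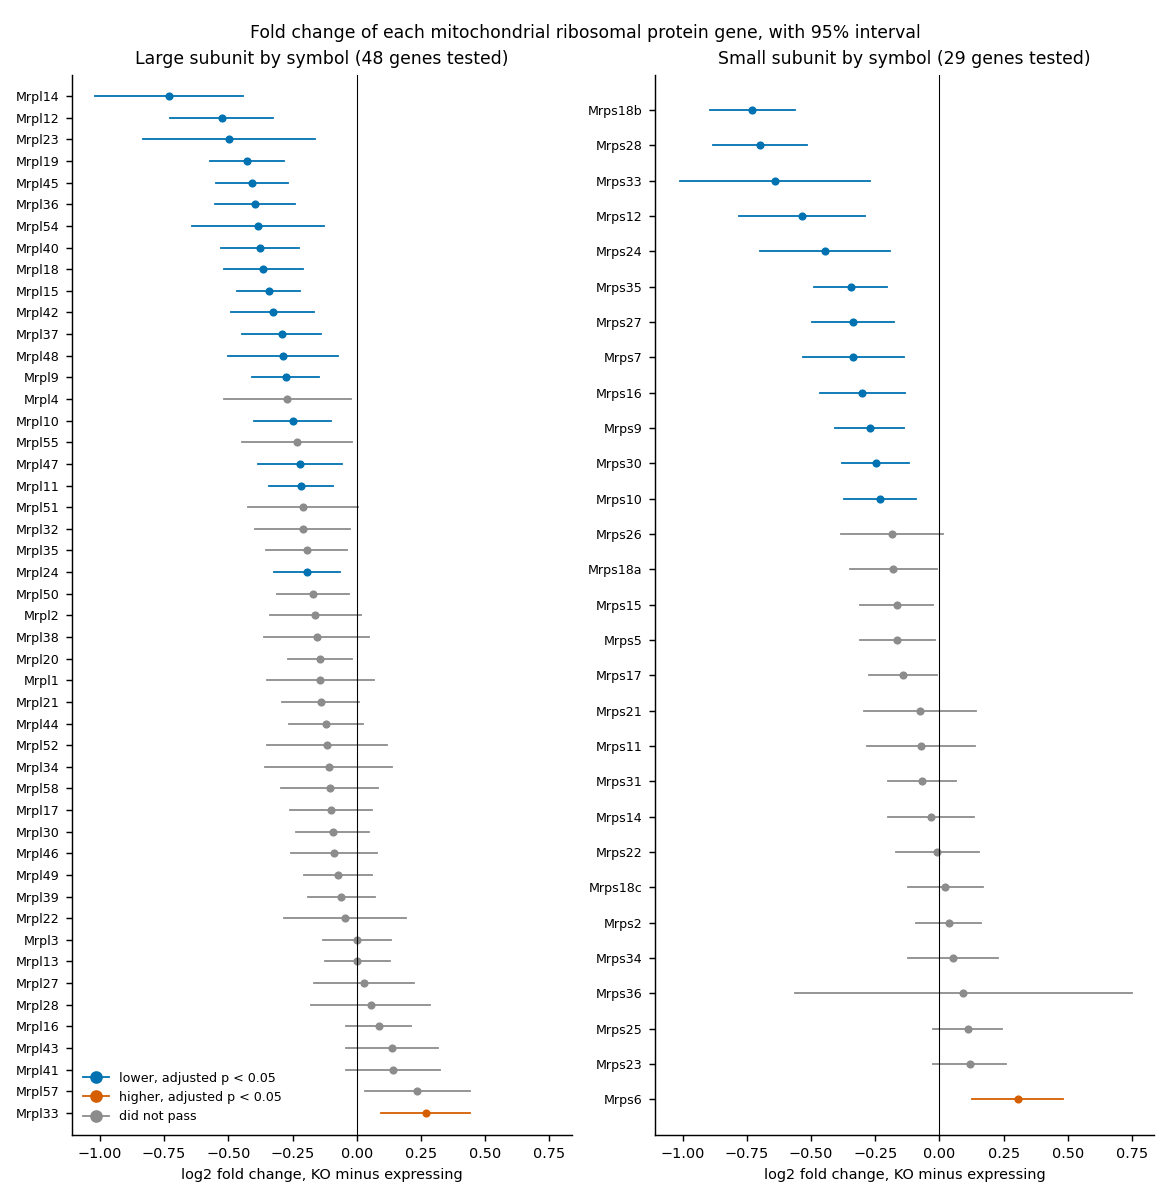
Log2 fold change (KO minus expressing) of each large subunit gene (left) and small subunit gene (right) with its 95% interval from edgeR; colour marks genes past an adjusted p of 0.05. In both subunits most points lie left of 0, from -0.73 for Mrpl14 and Mrps18b to 0.27 for Mrpl33 and 0.30 for Mrps6.

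The sizes of the changes were limited. Only 4 of the genes that fell did so by 1.5-fold or more, namely Mrpl14, Mrps18b, Mrps28 and Mrps33. For 75 of the 77 genes the 95% interval lay within a 2-fold change in either direction, and for 67 it lay within 1.5-fold. The 3 KO libraries were all below the 3 expressing libraries for 40 genes (24 large, 16 small) and all above them for 7 genes, and the groups overlapped for 30. Among all genes tested, 27.1% had KO below and 26.4% had KO above without overlap. Summed over the large subunit genes, the level was 3166, 3004 and 3032 CPM in the expressing libraries and 2703, 2658 and 2733 CPM in the KO libraries. The small subunit genes summed to 1387, 1323 and 1369 CPM and to 1220, 1202 and 1240 CPM. The groups did not overlap in either sum, and the means fell by 12.0% and 10.2%. As a share of all counts, before TMM scaling, the genes took 0.415% to 0.455% in the expressing libraries and 0.402% to 0.408% in the KO libraries.

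Mrpl14 fell the most in the large subunit. It encodes a core protein of the subunit and lies on chromosome 17 from 45686322 to 45698495 (mm10, plus strand; ENSMUSG00000023939). Its level was 8.61, 6.59 and 6.89 CPM in the expressing libraries and 4.61, 4.17 and 4.49 CPM in the KO libraries, and the groups did not overlap. This was a log2 fold change of -0.73 (SE 0.128, adjusted p = 0.00176, edgeR), or 60.2% of the expressing level. It overlaps an exon of Tmem63b on the opposite strand, which rose (0.23, adjusted p = 0.0145, edgeR).

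The stalk is the mobile arm of the large subunit that recruits translation factors, and all 4 genes of the stalk and its base that could be tested fell, with a median of -0.32 (4 fell without expressing replicate 1, with a median of -0.21). Over all genes tested 20.8% fell, and 26.9% among those with a mean of at least 10 CPM. Mrpl12, the multicopy protein of the stalk itself (chromosome 11, 120484613 to 120489065, plus strand; ENSMUSG00000039640), stood at 107, 85 and 90.5 CPM in the expressing libraries. In the KO libraries it stood at 66.9, 67.3 and 62.1 CPM (log2 fold change -0.53, SE 0.0886, adjusted p = 0.00142, edgeR). Expressing replicate 1 was the highest of the 6 libraries, and each expressing library exceeded each KO library. Mrpl54, a stalk-base protein found in mitochondria, was at 26.1, 18.8 and 21.6 CPM and then at 17.4, 16.6 and 16.8 CPM, the groups again without overlap (-0.38, SE 0.115, adjusted p = 0.0243, edgeR). Mrpl10, which anchors the stalk, changed by -0.25 (adjusted p = 0.0154, edgeR), and Mrpl11, the protein at the factor-binding centre, by -0.22 (adjusted p = 0.0118, edgeR). With libraries scaled by their totals, 1 of the 4 fell. The call of Mrpl54 was lost without expressing replicate 3 or any 1 of the KO libraries, that of Mrpl10 without KO replicate 1 or 3, and that of Mrpl11 without expressing replicate 3 or KO replicate 1 or 2. Mrpl53, the remaining gene of this group, was not tested, as its counts were 0, 1, 1, 0, 1 and 0. It shares exon sequence on its own strand with Gm42688, which had 31 to 67 counts.

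Around the polypeptide exit tunnel, through which the new chain leaves the ribosome, 4 of 8 genes fell and none rose (median -0.16, and -0.11 without expressing replicate 1, where 4 fell). Mrpl23, at the tunnel exit, was a rare transcript at 2.5, 2.86 and 2.49 CPM in the expressing libraries and 1.98, 1.97 and 1.65 CPM in the KO libraries. The values did not overlap (-0.50, SE 0.148, adjusted p = 0.0244, edgeR), but the call was lost in 5 of 14 settings: library totals, DESeq2, and without expressing replicate 2, expressing replicate 3 or KO replicate 3. Mrpl45, which helps hold the ribosome at the inner membrane, fell from 129, 124 and 124 CPM to 101, 91.7 and 91.5 CPM. Its 3 KO values lay well under the expressing ones (-0.41, SE 0.0617, adjusted p = 7.96e-04, edgeR). Mrpl47 (-0.22) and Mrpl24 (-0.19) also fell, whereas Mrpl17 (-0.10), Mrpl39 (-0.06), Mrpl22 (-0.05) and Mrpl44 (-0.12) did not pass. The calls of Mrpl47 and Mrpl24 were each lost in 8 of 14 settings, among them library totals, the replicate block and leaving out any library other than expressing replicate 1. With libraries scaled by their totals, 1 of the 8 fell.

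The central protuberance crowns the large subunit where it faces the small one, and 3 of its 7 genes fell (median -0.16, and -0.03 without expressing replicate 1, where 3 fell). This was 42.9%, against 20.8% of all genes tested and 26.9% of those with a mean of at least 10 CPM. Mrpl40, specific to mitochondria, stood at 88.0, 79.0 and 82.4 CPM in the expressing libraries and 62.9, 61.7 and 67.4 CPM in the KO libraries. The groups were clearly apart (-0.38, SE 0.0667, adjusted p = 0.00186, edgeR). Mrpl18 (-0.36) and Mrpl48 (-0.29) fell as well, and the call of Mrpl48 was lost in 6 of 14 settings, among them DESeq2 and leaving out expressing replicate 2 or KO replicate 1 or 2. Mrpl38 (-0.16), Mrpl52 (-0.12), Mrpl46 (-0.09) and Mrpl27 (0.03) did not pass.

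Elsewhere in the large subunit, Mrpl19 was at 70.1, 68.9 and 70.3 CPM and fell to 53.8, 48.5 and 53.2 CPM. The expressing libraries differed little among themselves and stood above every KO library (-0.43, SE 0.0642, adjusted p = 7.38e-04, edgeR). Mrpl36, a small protein with a bacterial counterpart, was at 38.4, 36.0 and 38.2 CPM and then at 29.9, 27.5 and 28.1 CPM, again without overlap (-0.40, SE 0.0697, adjusted p = 0.00179, edgeR). Mrpl15, with 226, 241 and 233 CPM the most abundant of all 77 transcripts by CPM, fell to 182, 181 and 190 CPM (-0.34, SE 0.0548, adjusted p = 0.00108, edgeR). Mrpl42, Mrpl37, Mrpl9, Mrpl10 and Mrpl11 fell by between 0.22 and 0.33 on the log2 scale. Proteins with a bacterial counterpart and proteins specific to mitochondria were both represented: 12 of 29 (41.4%) and 6 of 18 (33.3%) fell, with medians of -0.19 and -0.14, and the difference was not tested. Over all genes tested 20.8% fell, and 26.9% among those with a mean of at least 10 CPM. Without expressing replicate 1, 16 of the former fell and 3 rose (median -0.17), and 7 of the latter fell and 3 rose (median -0.04).

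In the small subunit, Mrps18b and Mrps28 fell the most. Mrps18b (chromosome 17, 35910379 to 35916389, minus strand; ENSMUSG00000024436) is 1 of 3 paralogues related to bacterial protein S18. Its level was 42.9, 42.4 and 44.9 CPM in the expressing libraries and 24.2, 26.8 and 27.6 CPM in the KO libraries. No library of either group came near the other (-0.73, SE 0.0737, adjusted p = 7.82e-05, edgeR). The other paralogues differed from it in value: Mrps18a, whose protein sits in the large subunit despite its name, had -0.18 (SE 0.0754, adjusted p = 0.0855, edgeR) and Mrps18c had 0.02 (SE 0.0650, adjusted p = 0.815, edgeR). Mrps18c was at 28.6, 27.9 and 29.1 CPM and at 29.1, 28.9 and 28.9 CPM. A pseudogene, Gm13552, is 99.8% identical to Mrps18b over 417 bases and had 1 to 13 counts per library, so a share of reads may have been dropped or split.

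Mrps28 (chromosome 3, 8802146 to 8923918, minus strand; ENSMUSG00000040269), related to bacterial protein S1, stood at 24.5, 22.3 and 25.1 CPM in the expressing libraries and 15.4, 15 and 14 CPM in the KO libraries. This left 61.7% of the expressing level and no overlap (-0.70, SE 0.0818, adjusted p = 1.79e-04, edgeR). It overlaps no exon of another annotated gene. Mrps12 (chromosome 7, 28739641 to 28741820, minus strand; ENSMUSG00000045948) encodes the counterpart of bacterial S12, a protein of the decoding centre. It was at 32.2, 24.1 and 27.1 CPM and fell to 19.8, 19.9 and 17.8 CPM, with expressing replicate 1 the highest and the groups apart (-0.54, SE 0.110, adjusted p = 0.00408, edgeR). Mrps33, a mitochondria-specific protein, was rare, at 3.27, 2.56 and 2.63 CPM and then 1.63, 2.06 and 1.68 CPM (-0.64, SE 0.164, adjusted p = 0.0124, edgeR). Its call was lost without KO replicate 3, and Gm5776 is 99.7% identical to it over 321 bases.

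The other small subunit genes that fell had smaller changes. Mrps24, the counterpart of bacterial S3 at the mRNA entry, was at 32.5, 24.7 and 26.5 CPM and then 22.6, 19.4 and 19.5 CPM (-0.45, SE 0.113). Mrps35, specific to mitochondria, was at 56.9, 53.9 and 53.7 CPM and then 44.1, 41.5 and 43.9 CPM (-0.34, SE 0.0634). In both the KO libraries were the lower 3. Mrps27, which carries pentatricopeptide repeats, was at 88.0, 78.8 and 84.2 CPM and then 69.1, 61.6 and 68.1 CPM (-0.34, SE 0.0704). Mrps7, an early assembling protein of the head, was at 50.3, 40.1 and 45.0 CPM and then 35.1, 36.9 and 35.1 CPM (-0.34, SE 0.0874). These groups did not overlap either, though Mrps7 spread more among the expressing libraries. Mrps16 (-0.30), Mrps9 (-0.27), Mrps30 (-0.25) and Mrps10 (-0.23) completed the 12. The call of Mrps7 was lost without expressing replicate 3 or KO replicate 1 or 3, and that of Mrps10 without expressing replicate 3 or any 1 of the KO libraries. The call of Mrps24 was lost without KO replicate 2 or 3, that of Mrps16 without KO replicate 3 and that of Mrps30 without KO replicate 2. The protein of Mrps30 belongs to the large subunit in mammals, and Mrps36 is now known as a component of the 2-oxoglutarate dehydrogenase complex. Of the small subunit genes, 7 of 17 with a bacterial counterpart (41.2%) and 4 of 10 specific to mitochondria (40.0%) fell (medians -0.17 and -0.13). The shares that fell among all genes tested and among those with a mean of at least 10 CPM were 20.8% and 26.9%. Without expressing replicate 1, 8 of the former fell and 1 rose (median -0.11), and 4 of the latter fell and 3 rose (median -0.07). Placed by position in the ribosome, 19 large and 11 small subunit genes fell.

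**Figure D2:**
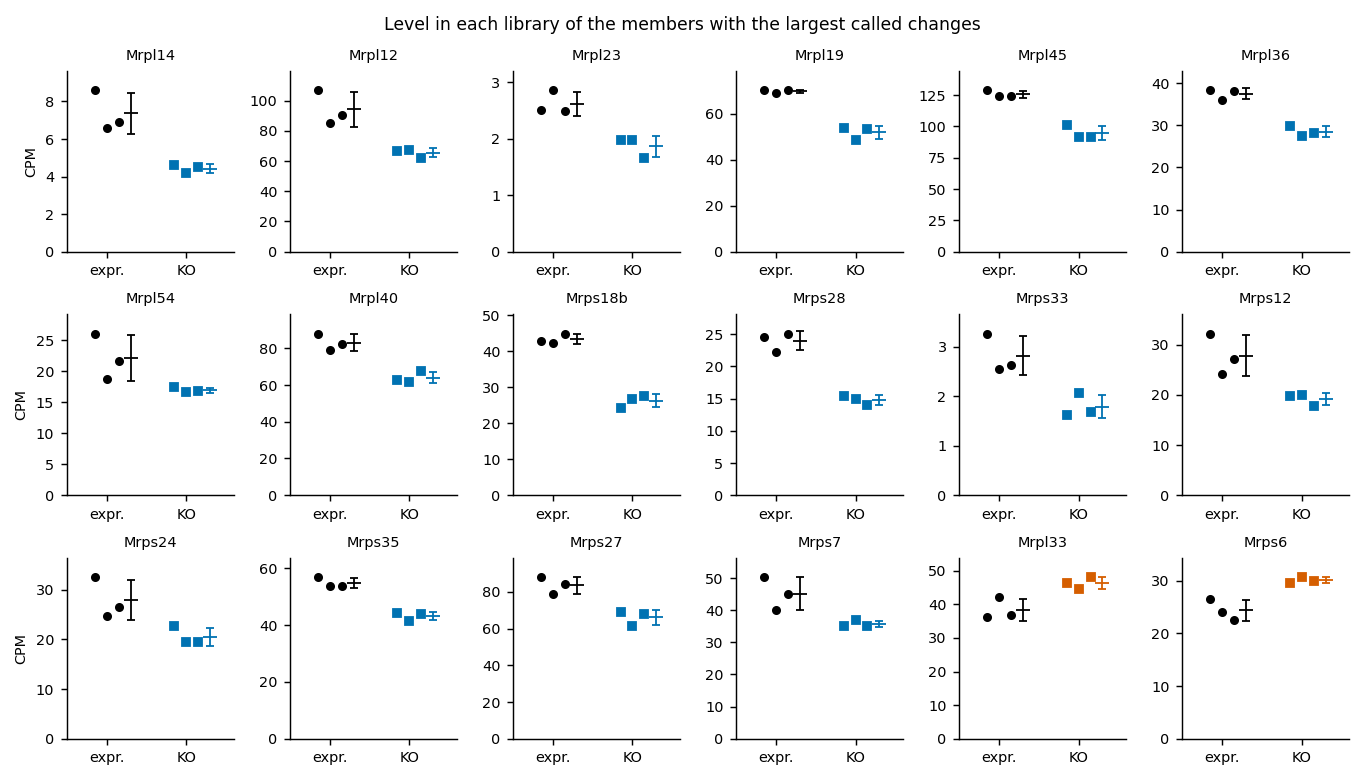
CPM in each of the 3 expressing (circles, marked expr.) and 3 KO (squares) libraries for the 8 genes per subunit that fell the most and the 2 that rose, with mean and SD beside the points; each axis starts at 0. In every panel the 2 groups are apart, and in many, such as Mrpl14 and Mrps12, expressing replicate 1 (leftmost circle) is the highest.

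Only 2 genes rose. Mrpl33, a small protein of the large subunit (chromosome 5, 31596935 to 31664384, plus strand; ENSMUSG00000106918), was at 36.3, 42.2 and 36.8 CPM in the expressing libraries and 46.3, 44.6 and 48.1 CPM in the KO libraries. The KO values were the 3 highest, with a gap that was small beside the spread (0.27, SE 0.0773, adjusted p = 0.0208, edgeR). Mrps6, the counterpart of bacterial S6 (chromosome 16, 92058270 to 92112227, plus strand; ENSMUSG00000039680), was at 26.5, 24.1 and 22.5 CPM and then 29.6, 30.7 and 29.9 CPM (0.30, SE 0.0788, adjusted p = 0.0130, edgeR). Mrps6 shares exon sequence on the same strand with the sodium and inositol transporter gene Slc5a3, which rose from 15.51 ± 2.13 to 24.46 ± 1.53 CPM (SD, n = 3; 0.65, adjusted p = 0.00124, edgeR). How far reads of Slc5a3 enter the Mrps6 count was not tested. The call of Mrpl33 was lost on leaving out KO replicate 1, KO replicate 3 or expressing replicate 3. The call of Mrps6 was lost on leaving out KO replicate 2 or expressing replicate 3.

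The 45 genes that did not pass had log2 fold changes from -0.27 (Mrpl4) to 0.24 (Mrpl57), and 31 of them were below 0. Mrpl3 was at 89.6, 95.7 and 89.3 CPM in the expressing libraries and 94.0, 89.3 and 91.5 CPM in the KO libraries. Mrpl13 was at 95.1, 95.5 and 92.1 CPM and at 95, 91.4 and 96.8 CPM. Mrps22 was at 44.0, 48.7 and 49.2 CPM and at 46.2, 45.3 and 49.6 CPM. In these 3 the groups overlapped fully, with fold changes of 0.00, 0.00 and -0.01 and standard errors of 0.0587, 0.0561 and 0.0720. Mrpl20 had KO values of 86.4, 82.3 and 86.9 CPM, all below the expressing values of 93.6, 93.8 and 94.6 CPM, and still did not pass (-0.14, SE 0.0555, adjusted p = 0.0674, edgeR). It passed without expressing replicate 1.

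Levels per kilobase of the principal transcript, which allow genes to be set beside each other, were spread widely. Among the tested genes, they ran in the expressing libraries from 3.40 to 127 CPM per kb in the large subunit (median 39.5) and from 1.04 to 61.9 CPM per kb in the small subunit (median 30.6). The highest large subunit levels were those of Mrpl42 (127 CPM per kb), Mrpl20 (123) and Mrpl24 (90.2), and the lowest those of Mrpl48 (3.40), Mrpl23 (3.78) and Mrpl57 (5.85). In the small subunit Mrps2 (61.9 CPM per kb), Mrps9 (58.5) and Mrps15 (54.0) led, and Mrps36 (1.04), Mrps33 (2.55) and Mrps26 (5.67) came last. Although each protein is present once or a few times per ribosome, these levels were far from even. They depend on the annotated length: 4285 bases for Mrpl48 and 4278 for Mrps26, but 666 for Mrpl42 and 764 for Mrpl20. Mrpl23 (692 bases), Mrps33 (1107) and Mrps36 (701) were low with shorter transcripts. Whether the cells use the annotated lengths was not tested. In the KO libraries Mrpl20 (111.5 CPM per kb) stood above Mrpl42 (101.4), and Mrpl33 (97.0) ranked next after them among the large subunit genes. Mrps36 has 4 near-identical pseudogenes, with 0 to 2 counts each, and reads lost to them would lower its level. Reads lost to Mrpl48-ps would likewise lower the level of Mrpl48.

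**Figure D3:**
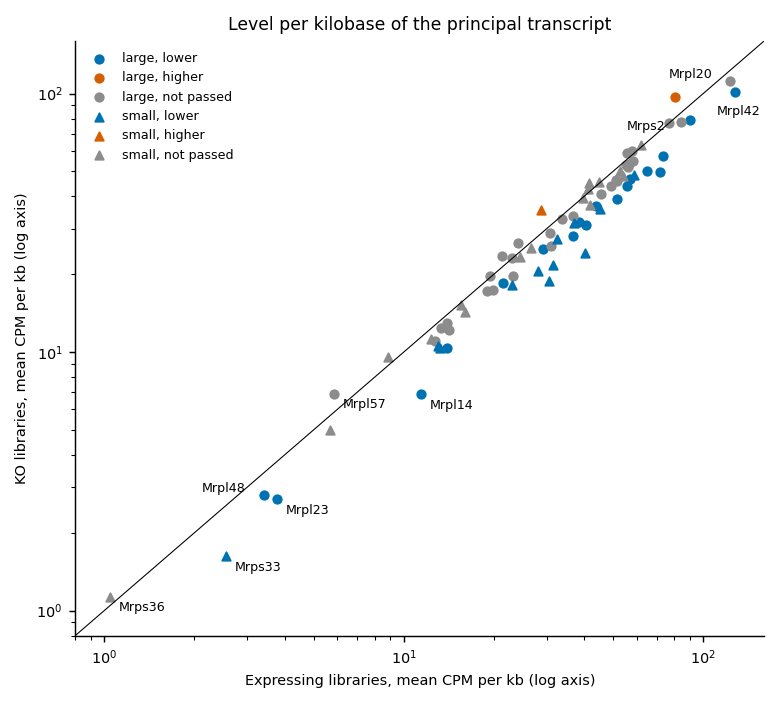
Mean CPM per kilobase of the principal transcript in the expressing (x) and KO (y) libraries on log axes, 1 point per gene, circles for the large and triangles for the small subunit, coloured by call; the line marks equal levels. Points hug the line over the whole range, from Mrps36 at 1.04 to Mrpl42 at 127 CPM per kb in the expressing libraries, and most lie a little below it.

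Expressing replicate 1 was the highest of the 6 libraries for 41 of the 77 genes. For genes at or above the median GC content of 49.7% its level exceeded the mean of the other 2 expressing libraries by a median of 0.18 on the log2 scale, and for genes below that median by 0.00. Across the 77 genes this deviation had a Pearson correlation of 0.56 with GC content, a description only, since all points share the same libraries. The fold changes were alike on both sides of that median: 16 of 39 genes of higher GC fell, with a median of -0.17, and 14 of 38 genes of lower GC fell, with a median of -0.17. With the trend on GC removed from each library, 41 genes fell and 7 rose, with a median of -0.19. Calls became more frequent over all genes tested as well, to 4932 lower and 4466 higher.

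Many of these genes start close to the start of another gene on the opposite strand. Pairs that overlap at their starts were counted together with pairs that lie apart. For 37 of the 78, a gene on the opposite strand starts within 1000 bases, and 31 such pairs had a protein-coding partner with both genes tested. Both fell in 4 pairs, the gene fell and its partner rose in 2, the gene alone passed in 8, the partner alone in 6, and neither in 11. Over all genes tested 20.8% fell and 19.2% rose, and 26.9% and 17.8% among those with a mean of at least 10 CPM. Whether neighbours moved together more often than other genes was not tested. The pair of Mrps12 and Sars2 joins a ribosomal gene to the mitochondrial seryl-tRNA synthetase, with starts 172 bases apart. Sars2 was at 24.5, 19.1 and 20.6 CPM in the expressing libraries and 15.6, 15.5 and 15.3 CPM in the KO libraries. Both members of the pair were thus lower in every KO library, with similar log2 fold changes of -0.54 and -0.47. Mrpl36 and Ndufs6, a complex I subunit (29 bases apart by the GENCODE gene starts), had -0.40 and -0.39. The GENCODE start of Mrpl36 is at 73328513, but the RefSeq start searched for promoter patterns lies just past 73331008. Which start the cells use was not tested. Mrps7 and Gga3 had -0.34 and -0.32, and Mrpl18 and the chaperonin gene Tcp1 had -0.36 and -0.27. Mrps18b and Ppp1r10, with starts 45 bases apart, did not move alike in value: Mrps18b had -0.73 and Ppp1r10 -0.11 (SE 0.0668, adjusted p = 0.207, edgeR). Mrpl14 and Tmem63b (583 bases apart) went in opposite directions, at -0.73 and 0.23. The counts of Mrpl14, Mrpl18, Mrpl36 and Mrps7 are uncertain to the extent that exons of the pair overlap.

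**Figure D4:**
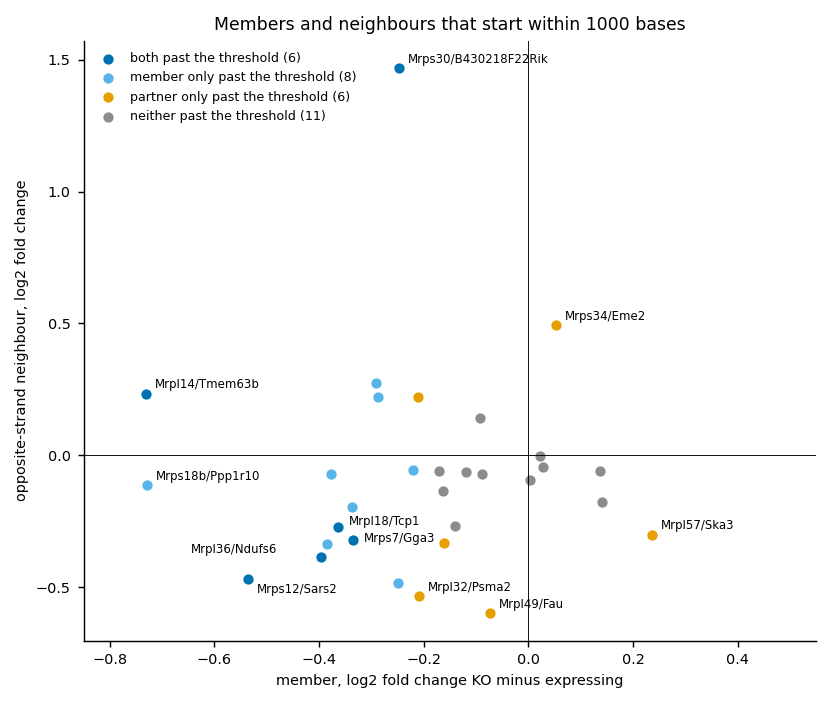
Log2 fold change (KO minus expressing) of each ribosomal gene (x) against that of the protein-coding gene starting within 1000 bases on the opposite strand (y), for 31 pairs coloured by which gene passed an adjusted p of 0.05. The 4 pairs in which both fell lie at the lower left, from Mrps12/Sars2 at -0.54 and -0.47 to Mrpl18/Tcp1 at -0.36 and -0.27, while Mrpl14/Tmem63b and Mrps30/B430218F22Rik lie above 0 on the y axis.

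Promoter sequences from RefSeq (GRCm38.p6, 250 bases before to 50 bases after each start) were found for 69 of the genes, in 75 windows. Short letter patterns were searched on both strands, each on its own, so matches to different patterns may share letters. The ETS core CCGGAAG, bound by factors such as GABP, was in 34.7% of these windows and in 8.86% of all 32851 windows. The YY1 core AAGATGGCG was in 10.7% and 1.4%, the NRF1 core GCATGCGC in 10.7% and 2.71%, the E-box CACGTG in 9.33% and 7.15%, and the TATA box TATAAA in 6.67% and 13.6%. Windows of the same gene were counted apart even where they overlap. Those of Mrpl2 hold the same E-box, at -131, -139 and -147 from their starts, so the E-box share by gene is smaller. The ETS core was in 7 of 29 windows of genes that fell and 17 of 43 windows of genes that did not pass, and the NRF1 core in 3 of 29 and 4 of 43. The YY1 core went the other way, in 5 of 29 and 3 of 43. The E-box was in 2 of 29 and 5 of 43, and the TATA box in 2 of 29 and 3 of 43. These differences were not tested. The C/EBP-ATF pattern TGATGCAA was in none of the 75 windows and in 0.895% of all windows. A match describes letters only and says nothing of binding.

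The 150 bases upstream of 4 starts are shown because they cover a gene that fell together with its neighbour (Mrps12), a gene that fell with none of these patterns in its window (Mrpl45), and genes that did not pass with an ETS core (Mrpl58) or an E-box (Mrpl20). Each is read 5′ to 3′ on the strand of the gene, capitals mark a match, and the last capitals of Mrpl58 begin a second ETS core that runs past the start. They lie at chr7:28741822-28741971 (minus strand), chr11:97315566-97315715 (plus), chr11:115403602-115403751 (plus) and chr4:155802728-155802877 (plus) in GRCm38.p6, and none overlaps an annotated exon.
Mrps12: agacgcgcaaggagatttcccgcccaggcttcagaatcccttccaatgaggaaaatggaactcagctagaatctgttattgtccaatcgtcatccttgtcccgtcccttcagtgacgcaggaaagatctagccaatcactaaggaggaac
Mrpl45: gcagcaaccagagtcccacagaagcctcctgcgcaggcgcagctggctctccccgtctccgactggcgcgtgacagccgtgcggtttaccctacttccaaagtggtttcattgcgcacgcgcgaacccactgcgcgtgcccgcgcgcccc
Mrpl58: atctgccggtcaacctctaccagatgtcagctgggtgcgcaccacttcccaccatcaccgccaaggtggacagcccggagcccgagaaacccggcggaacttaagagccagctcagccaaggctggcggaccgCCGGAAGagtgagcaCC
Mrpl20: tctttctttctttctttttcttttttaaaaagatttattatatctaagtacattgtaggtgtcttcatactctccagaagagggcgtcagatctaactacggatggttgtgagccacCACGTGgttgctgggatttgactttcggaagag
The sequence of Mrps12 lies in the interval between its start and that of Sars2. An ETS core of Mrps12 begins just past its start, outside the bases shown. Mrpl58 encodes a peptidyl-tRNA hydrolase built into the large subunit that releases stalled chains, and it was at 38.0, 31.3 and 34.8 CPM in the expressing libraries and 33.0, 32.8 and 30.9 CPM in the KO libraries. Its groups overlapped (-0.11, SE 0.0839, adjusted p = 0.346, edgeR).

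Genes that act beside these ribosomal proteins were taken from lists by function. Their counts are to be read beside the shares over all genes tested, where 20.8% fell and 19.2% rose. Among genes with a mean of at least 10 CPM these were 26.9% and 17.8%. Of 5 mitochondrial ribosomal proteins with other names, 2 fell and 1 rose (median -0.18, and -0.07 without expressing replicate 1, where 2 fell and 1 rose). Gadd45gip1, a large subunit protein, was at 30.8, 25.3 and 28.8 CPM and then 18.6, 18.4 and 19.1 CPM (-0.60, adjusted p = 6.46e-04, edgeR). Ptcd3, of the small subunit, had -0.36 and fell, and Chchd1, also of the small subunit, had 0.23 and rose. Aurkaip1 (-0.18) and Dap3 (-0.13) did not pass. Both directions were thus seen in these 5 genes as well.

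Of 28 genes for mitoribosome assembly and rRNA modification, 9 fell (32.1%) and 1 rose (3.57%), with a median of -0.16. For comparison, 20.8% of all genes tested fell, and 26.9% of those with a mean of at least 10 CPM. Leaving out expressing replicate 1 gave 10 that fell, 2 that rose and a median of -0.05. The smallest p-values belonged to Rpusd4 (-0.34), a pseudouridine synthase, Tfb1m (-0.42), the rRNA dimethylase, and Gtpbp6 (-0.60). Nsun4 (0.28), an rRNA methyltransferase, rose. With libraries scaled by their totals, 5 fell and 2 rose. Of 16 translation factor genes, 3 fell (18.8%, below both of those shares) and 1 rose (6.25%), with a median of -0.01. Oxa1l (-0.63), the inner membrane insertase, Mrrf (-0.55), the ribosome recycling factor, and Gfm2 (-0.35) fell, and the elongation factor Gfm1 (0.17) rose. Without expressing replicate 1, 4 fell and 5 rose (median -0.02), and with total counts as the scale 3 fell and 3 rose, with a median of 0.08. Of 17 mitochondrial aminoacyl-tRNA synthetase genes, 9 fell (52.9%) and 2 rose (11.8%), with a median of -0.21. Pars2 (-0.59) and Fars2 (-0.57) were among those that fell, while Nars2 (0.35) and Mars2 (0.36) rose. With libraries scaled by their totals 6 fell and 2 rose, and without expressing replicate 1 9 fell and 2 rose (median -0.17). Of 10 genes for mitochondrial transcription and DNA maintenance, 4 fell (40.0%), namely Tefm (-0.48), Mgme1 (-0.30), Tfam (-0.26) and Ssbp1 (-0.19), and none rose (median -0.13). Without expressing replicate 1, 4 fell with a median of -0.06, and with libraries scaled by their totals 3 fell with a median of -0.04.

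Of 7 mitochondrially encoded protein genes tested, none passed in edgeR (median 0.06), with 1 higher at an unadjusted p under 0.05. mt-Co1 was at 4140, 6090 and 6590 CPM in the expressing libraries and 5500, 5340 and 5710 CPM in the KO libraries. Expressing replicate 1 was the lowest of the 6, and without it 4 of the 7 fell, with a median of -0.16. With total counts as the scale 1 rose and none fell. The remaining 6 of the 13 genes, mt-Co2, mt-Co3, mt-Atp6, mt-Atp8, mt-Nd3 and mt-Nd4l, were not tested. Their counts were 0 throughout, apart from 1 of mt-Atp6 in KO replicate 1 and 27 of mt-Co3 in KO replicate 3. The reason was not tested, and the zeros do not show that these transcripts are absent. The ribosomal RNA mt-Rnr1 rose from 7, 23 and 14 counts to 34, 37 and 67 (1.41, SE 0.321, adjusted p = 0.00701, edgeR). mt-Rnr2 had 6, 19 and 12 counts and then 30, 37 and 22 (1.07, SE 0.382, adjusted p = 0.0503, edgeR) and passed with libraries scaled by their totals. These few reads come from RNA selected for poly(A) tails, which leaves out most ribosomal RNA, so they do not measure the amount of mitochondrial rRNA.

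Cytosolic ribosomal proteins are the closest class by function, and 65 of 76 of their genes fell and none rose in edgeR (0 higher at an unadjusted p under 0.05 too), with a median of -0.53. Leaving out expressing replicate 1 gave 65 that fell and a median of -0.47. The median of the mitochondrial class was -0.17, and the difference between the classes was not tested. Of 10 regulators of nuclear mitochondrial genes that were tested, 5 fell and none rose (median -0.24). Nrf1, the factor of the NRF1 core, had -0.24 (adjusted p = 0.0123, edgeR), and Gabpa, the ETS-domain subunit of GABP, had -0.33 (adjusted p = 0.0154, edgeR). Myc fell by 0.48, Mycn by 0.79 and Esrrb, which is also a pluripotency marker, by 0.98 on the log2 scale. Yy1 did not pass (0.19, adjusted p = 0.133, edgeR). With libraries scaled by their totals, 4 of the 10 fell and 2 rose (median -0.15), and without expressing replicate 1 6 fell and 2 rose (median -0.16).

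**Figure D5:**
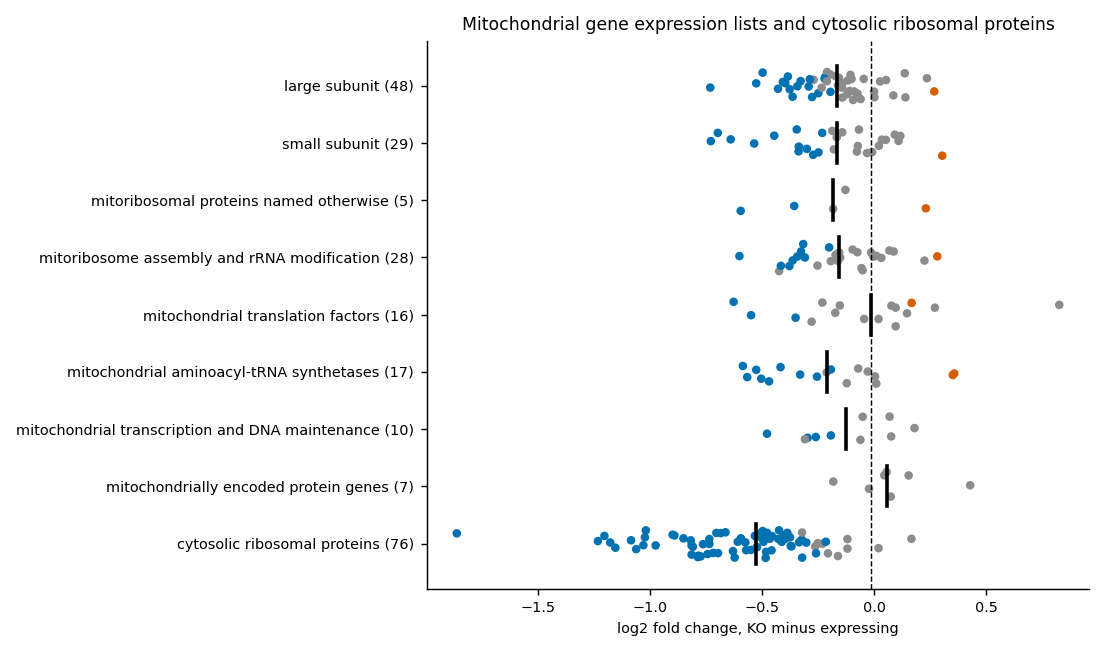
Log2 fold change (KO minus expressing) of every tested gene in the lists named at the left, 1 point per gene with vertical scatter for legibility; blue fell, orange rose, grey did not pass, the thick bar is the list's median and the dashed line the median of all genes tested. With all 6 libraries the medians were -0.17 in both subunits, -0.16 in the assembly list, -0.21 in the synthetase list and -0.53 for the cytosolic ribosomal proteins.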

How the data were processed

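The deposited table holds raw read counts per gene, not normalized, for 6 libraries, per the labels' protocols prepared by a stranded mRNA kit (800 ng input, 12 PCR cycles). The submitters' processing notes name STAR 2.5.3a, HTSeq 0.6.1p1, cutadapt 1.10, bcl2fastq 2.20.0.422 and build mm10. Whether the authors counted by strand was not given in the sources used here. Of the 77 tested genes, 7 share exon sequence with another gene on the same strand and 27 on the opposite strand, and 16 have an annotated pseudogene at least 95% identical over 200 bases or more. The counts of those genes are uncertain. Gene symbols, positions and transcript lengths come from GENCODE M21 (same build), which named 55141 of 55401 identifiers.

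Groups follow the sample titles. In R 4.3.3, edgeR 4.0.16 was run with filterByExpr (minimum count 10, minimum total count 15), TMM, glmQLFit (robust) and glmQLFTest on all 6 libraries with the group as the only term. P-values were adjusted over all 17778 genes by the Benjamini-Hochberg method. The common biological coefficient of variation was 9.05%, and 3 counts correspond to 0.0581 to 0.0961 CPM, covering counting error only. The procedure was tested on simulated data. Since nothing says that the dishes came from separate cultures, p-values measure the spread between these libraries. Named genes are, per subunit and direction, up to 8 past the threshold with the largest changes, the 3 highest and 3 lowest per kilobase, the genes of the role groups, the 3 of smallest change, and up to 3 per direction for other lists by p. Genes named outside this rule were chosen after their values were seen. A gene that the rule names in the synthetase list is not reported here. The genes studied and the lists were chosen with earlier results of these data known. Alternatives were other scalings, filters and DESeq2 1.42.0, left-out libraries, a replicate block and removal of a GC trend. The alternatives of leaving out genes with near-identical pseudogenes, and of recounting the other lists without expressing replicate 1, were added after the data were seen.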

Additional observations from a re-analysis of the deposited data

How the results depend on the processing

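Of 52 genes given with their own values, 32 had passed, and 15 of these, all lower, passed in each of up to 14 settings. These were Mrpl9, Mrpl12, Mrpl14, Mrpl15, Mrpl18, Mrpl19, Mrpl36, Mrpl40, Mrpl45, Mrps9, Mrps12, Mrps18b, Mrps27, Mrps28 and Mrps35. No gene that had passed changed direction in any setting. The large subunit counts were 1 higher and 18 lower. They became 3 and 10 with libraries scaled by their totals. That scaling also moved the medians of the large and small subunits from -0.17 and -0.17 to -0.08 and -0.08. Among the large subunit genes that overlap no other gene the counts were 0 and 8, with 21 of 48 tested genes left out. The share that fell was smaller there too. It was only a little above the 26.9% that fell among all genes with a mean of at least 10 CPM. Removing the GC trend gave 4 higher, as did adding the replicate block to it (4). Leaving out 1 library gave 0 to 6 higher and 12 to 23 lower. The small subunit counts were 1 and 12. They became 3 higher with library totals, 3 with the GC trend removed, 3 with the replicate block added to that, and 0 and 7 among genes without overlaps. Leaving out 1 library gave 0 to 4 higher and 7 to 14 lower, with 7 without KO replicate 3 and 4 higher without expressing replicate 1, and the cause was not tested. With the replicate block alone, 15 large and 12 small subunit genes were lower and 1 and 1 higher. DESeq2 gave 15 and 12 lower. Deviations of same-numbered libraries from their group means had correlations of 0.02, -0.03 and 0.04 over genes. With 3 libraries per group, these values do not settle whether the numbers mark shared cultures.

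Genes near 0 changed sign. With library totals Mrpl22 was 0.042, Mrpl39 0.030, Mrps14 0.059 and Mrps22 0.083. Mrps22 was 0.0053 with RLE scaling and 0.0059 with DESeq2. With the GC trend removed Mrpl13 was -0.069, Mrpl3 -0.052 and Mrps18c -0.039, and with the replicate block added to it they were -0.061, -0.051 and -0.038. With 1 library left out, the ranges were -0.015 to 0.036 for Mrpl13, -0.15 to 0.048 for Mrpl22, -0.019 to 0.092 for Mrpl27, -0.019 to 0.031 for Mrpl3, -0.23 to 0.015 for Mrpl52, -0.092 to 0.0088 for Mrps14, -0.048 to 0.031 for Mrps22 and -0.084 to 0.28 for Mrps36. The 3 rarest tested transcripts, Mrps36, Mrpl23 and Mrps33, had the largest standard errors.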

Other observations

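Genes linked to mitochondrial stress were lower in the KO libraries. Of 8 tested, 6 fell and none rose in edgeR (0 higher at an unadjusted p under 0.05), with a median log2 fold change of -0.45, and 6 fell and none rose without expressing replicate 1 (median -0.40). The share that fell was 75.0%, against 20.8% of all genes tested and 26.9% of those with a mean of at least 10 CPM. Ddit3, which encodes the stress transcription factor CHOP, was at 8.97, 8.29 and 7.44 CPM in the expressing libraries and 3.55, 3.55 and 3.14 CPM in the KO libraries (-1.27, SE 0.118, adjusted p = 4.88e-05, edgeR). Atf5, a factor of the mitochondrial unfolded protein response, was at 17.6, 13.7 and 18.0 CPM and then 8.56, 7.91 and 7.88 CPM (-1.02, SE 0.117, adjusted p = 1.67e-04, edgeR). The groups were far apart in both. The mitochondrial chaperone Hspa9 was at 1370, 1430 and 1440 CPM and then 1080, 1070 and 1120 CPM (-0.38, SE 0.0505, adjusted p = 3.85e-04, edgeR). Lonp1 (-0.18) and Hspe1 (-0.12) did not pass. Fgf21 was not tested, with 0 counts in each KO library.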
